A study of Mus musculus with 11 samples.

Results

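Serpins are a family of proteins with a shared fold, most of which block serine proteases. The 9 serpin genes listed for this account were Serpina3n, Serpina3g, Serpinb1a, Serpinb6a, Serpinb9, Serpine2, Serping1, Serpinh1 and Serpini2. The samples are pancreas RNA from mice of the wild-type C57BL/6J strain (labelled C57Bl6J), some with acute pancreatitis induced by caerulein. A gene was taken where a probe set carried its symbol and no other, and the brightest such probe set over the 11 arrays was to stand for a gene with several. This gave 7 genes of the 19938 with a probe set of their own, each with 1 such probe set. Serpina3g and Serpine2 had none and were not analysed here. Caerulein, a peptide that overstimulates acinar cells through cholecystokinin receptors, was injected intraperitoneally 9 times at hourly intervals, at 50 mg/kg by the series record, whose unit could not be verified. The caerulein group has 6 arrays, and the series text counts 6 caerulein mice. The control group, injected with sodium chloride (NaCl), has 5 arrays, whereas the series text counts 4 control mice. Age, sex and the time from the last injection to tissue collection are not stated in the labels. No label says that each array is a separate mouse, so the tests measure only how much these samples vary, which may be technical.

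An inhibitory serpin offers an exposed loop to its target protease as bait. When the protease cuts the loop, the serpin changes shape and traps the enzyme in a covalent complex, so each inhibitor molecule is used up. Clade A serpins such as Serpina3n are mostly secreted, while clade B serpins such as Serpinb1a, Serpinb6a and Serpinb9 mostly stay inside the cell, where they can meet proteases that leak from granules or lysosomes. In the pancreas, premature activation of digestive proteases inside acinar cells is an early event of pancreatitis. A few family members have lost the inhibitory function, among them Serpinh1, a chaperone of collagen in the endoplasmic reticulum.

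The 250 bases before the annotated transcription start are shown for 4 of these genes, Serpina3n and Serpinb6a because they had the largest rises of these genes, Serpini2 because it fell, and Serpinh1 because it is known as a heat shock gene. The sequences are those of RefSeq on GRCm38.p6, written 5′ to 3′ in the direction of transcription. Capitals mark matches on either strand to 5 letter patterns. They were TTCNNNGAA (STAT type), GAANNTTC (heat shock element type), and GGG and TTTCC with 2 bases between them (NF-kB type). The others were CANCTG (E box type) and GGGCGG (GC box). Other E box forms, such as CACATG, were not searched. Serpinb9 and the second annotated start of Serpinb6a were searched as well.
Serpina3n, chr12:104406458-104406707, plus strand: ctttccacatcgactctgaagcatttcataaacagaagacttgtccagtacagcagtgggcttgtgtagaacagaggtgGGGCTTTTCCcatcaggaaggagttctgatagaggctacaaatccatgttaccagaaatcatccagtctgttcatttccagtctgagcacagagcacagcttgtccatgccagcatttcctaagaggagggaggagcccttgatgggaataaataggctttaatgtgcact
Serpinb6a, chr13:34002795-34003044, minus strand: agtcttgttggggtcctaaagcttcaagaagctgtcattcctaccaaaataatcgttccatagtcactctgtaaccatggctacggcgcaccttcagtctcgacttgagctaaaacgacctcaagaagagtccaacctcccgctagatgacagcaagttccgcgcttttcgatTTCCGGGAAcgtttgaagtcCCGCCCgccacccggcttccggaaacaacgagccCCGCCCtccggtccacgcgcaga
Serpini2, chr3:75270079-75270328, minus strand: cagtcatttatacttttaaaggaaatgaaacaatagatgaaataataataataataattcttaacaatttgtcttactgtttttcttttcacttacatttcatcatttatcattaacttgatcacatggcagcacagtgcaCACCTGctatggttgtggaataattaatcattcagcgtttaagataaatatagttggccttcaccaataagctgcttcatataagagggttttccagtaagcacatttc
Serpinh1, chr7:99353240-99353489, minus strand: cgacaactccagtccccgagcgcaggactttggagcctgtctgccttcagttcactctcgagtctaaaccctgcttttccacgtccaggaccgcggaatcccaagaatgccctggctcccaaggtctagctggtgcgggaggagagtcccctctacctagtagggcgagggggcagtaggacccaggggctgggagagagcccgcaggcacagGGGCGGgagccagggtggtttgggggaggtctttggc
In the Serpina3n window the capitals are 1 match to the NF-kB type pattern, which 1.41% of 32851 promoter windows of the same length also held. The Serpinb6a window held 1 match to the STAT type pattern (7.02% of windows) and 2 GC boxes (32.7%). The second Serpinb6a start held matches to the E box type pattern only. The Serpini2 window held 1 match to the E box type pattern (44.8% of windows), CACCTG, and the Serpinh1 window 1 GC box. The heat shock element type pattern (6.69% of windows) was in none of these windows, and none of the 5 patterns was in that of Serpinb9. These matches describe the letters and not the binding of any factor.

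Of the 7 genes, 5 rose, 1 fell and 1 did not pass the test in caerulein pancreas. Serpina3n rose 10.6-fold, Serpinb6a 8.72-fold, Serpinb1a 4.30-fold, Serpinh1 1.68-fold and Serping1 1.36-fold, while Serpini2 fell 4.18-fold. Serpinb9 did not pass, with a log2 difference of 0.26. The test was limma over all 35556 probe sets, and genes with a Benjamini-Hochberg adjusted p under 0.05 passed. By the same test 54.6% of all 19938 genes passed (20.3% higher, 34.3% lower), as did 44.2% of all probe sets (16.4% higher, 27.8% lower), so passing alone sets no gene apart. The median log2 difference was 0.75 over the 7 genes and -0.13 over all genes, but the listed serpins were chosen with earlier results in view. By size, 6.14% of genes passed with a log2 rise of at least 1 and 1.44% with a log2 fall of at least 1. Of the serpins, Serpina3n, Serpinb6a and Serpinb1a were in the first class and Serpini2 in the second. For 5 of the 7 genes every caerulein array lay on the same side of all NaCl arrays, which held for 37.2% of all genes. All caerulein arrays were higher in 4 of the 5 (16.7% of all genes) and lower in 1 (20.6%). The arrays were also rescaled in 4 ways, by cyclic loess, by a second quantile normalisation, to equal 75th percentiles and to reference genes. The last set an equal mean of 15 commonly used scaling genes and is called reference-gene scaling here. Of the 19938 genes, 4365 were higher and 3636 lower after cyclic loess, and 3844 and 4671 after the second quantile normalisation. With equal 75th percentiles they numbered 3725 and 9155, and under reference-gene scaling 1343 and 17019. Counts of a list under a rescaling are to be read beside these.

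**Figure D1:**
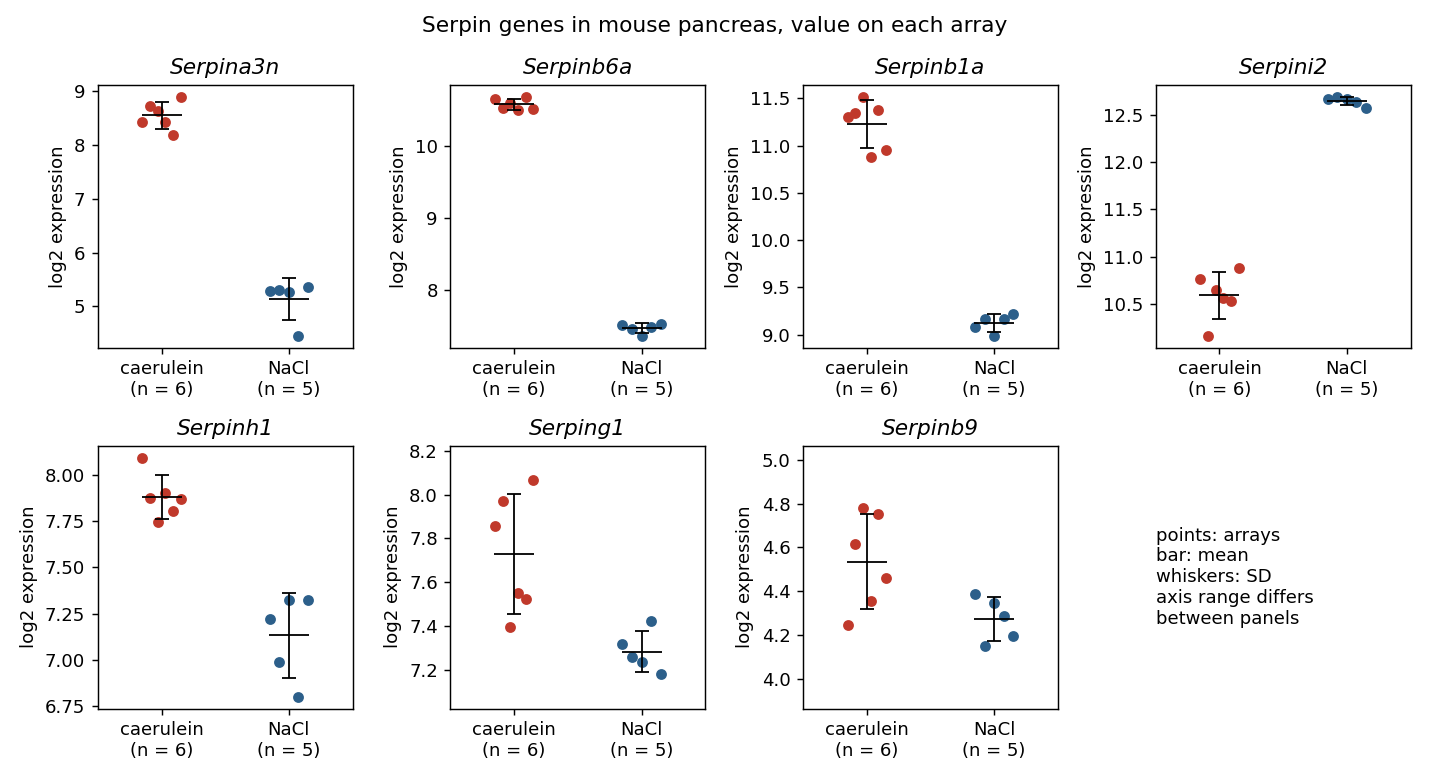
Log2 expression (vertical axis, range differing between panels) of the 7 serpin genes on each caerulein and NaCl array, with the mean and SD. The caerulein arrays lie above all NaCl arrays for Serpina3n, Serpinb6a, Serpinb1a and Serpinh1 and below them for Serpini2, and the groups overlap for Serping1 and Serpinb9.

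Serpina3n encodes a secreted inhibitor of chymotrypsin-like proteases, related to human alpha-1-antichymotrypsin, and is an acute phase gene. On the caerulein arrays its log2 expression had a lowest value of 8.18, a median of 8.53 and a highest value of 8.89. On the NaCl arrays it was 5.30, 5.31, 5.27, 4.45 and 5.35. NaCl replicate 4 lay below the other 4 NaCl arrays, which were close together, and all caerulein arrays were above all NaCl arrays. The means were 8.54 ± 0.26 in caerulein (SD, n = 6) and 5.14 ± 0.38 in NaCl (SD, n = 5). The log2 difference was 3.41 (SE 0.17, limma adjusted p = 7.6e-09), and without any 1 array it stayed between 3.24 and 3.48. Only 32 of the 19938 genes had a larger rise.

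Serpinb6a encodes an intracellular inhibitor, whose human counterpart blocks trypsin-like proteases and cathepsin G. The caerulein arrays ran from 10.51 to 10.69 with a median of 10.57, and the NaCl arrays read 7.51, 7.45, 7.36, 7.48 and 7.52. Within each group the arrays nearly coincided, with an SD of 0.076 in caerulein and 0.066 in NaCl. The log2 difference was 3.12 (SE 0.06, limma adjusted p = 7.2e-12). Although 49 genes rose more, only 1 gene in the table had a smaller p.

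Serpinb1a, the inhibitor of the neutrophil proteases elastase, cathepsin G and proteinase 3, lies in the same chromosome 13 cluster as Serpinb6a. Its lowest caerulein value was 10.88, the median 11.32 and the highest 11.51, against 9.08, 9.17, 8.99, 9.16 and 9.22 in NaCl. Caerulein replicates 4 and 6 were the lowest of their group, at 10.88 and 10.95, and still 1.66 or more above the highest NaCl array. The log2 difference was 2.10 (SE 0.11, limma adjusted p = 1.3e-08).

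Serpinb9 blocks granzyme B, the death-inducing protease of cytotoxic lymphocytes, and also belongs to the chromosome 13 cluster. It read 4.25 at the lowest, 4.54 at the median and 4.78 at the highest on the caerulein arrays, against 4.39, 4.15, 4.35, 4.29 and 4.19 on the NaCl arrays. In caerulein 4 of 6 arrays were above all NaCl arrays, and caerulein replicate 1 was below 3 of the 5 NaCl arrays. The log2 difference of 0.26 (SE 0.10) missed the threshold (limma adjusted p = 0.0522). It passed without caerulein replicate 1 (0.32, adjusted p = 0.0171) or replicate 4 (0.30, adjusted p = 0.0386), after cyclic loess (0.42) and after the second quantile normalisation (0.39), and had the opposite sign under reference-gene scaling (-0.43, adjusted p = 0.00197).

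Serpini2, also called pancpin, is a serpin of the exocrine pancreas, and mice lacking it lose acinar cells. Its caerulein values had a lowest of 10.16, a median of 10.60 and a highest of 10.88, against 12.68, 12.69, 12.67, 12.64 and 12.58 in NaCl. The NaCl arrays were nearly equal (SD 0.043), the caerulein arrays varied more (SD 0.25), and caerulein replicate 2 was the lowest. The log2 difference was -2.06 (SE 0.11, limma adjusted p = 1.1e-08), and 30 genes had a larger fall. In whole tissue, fewer cells of a type and less RNA per cell cannot be told apart. Beside this fall, of 11 measured acinar markers 3 fell, 1 rose and 7 did not pass. The largest falls were those of Bhlha15 (-2.001) and Rbpjl (-1.43), and the rise was that of Ptf1a (0.55). The summed signal of the 11 markers was 154516 to 162501 in caerulein and 168098 to 172525 in NaCl. Under reference-gene scaling 10 of these markers were lower and 0 higher. With equal 75th percentiles 8 were lower and 1 higher, and with a trended robust variance prior likewise 8 and 1. After cyclic loess 2 were lower and 1 higher, and after the second quantile normalisation 3 and 0. With array weights 3 were lower and 1 higher, and with the replicate number as a block 2 and 1. The part of acinar cell content in the fall of Serpini2 was not tested.

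Serpinh1, known as Hsp47, folds procollagen and is a heat shock gene. Its caerulein arrays ran from 7.75 through a median of 7.87 to 8.09, and the NaCl arrays read 7.22, 6.99, 7.33, 6.80 and 7.32. All caerulein arrays were above all NaCl arrays, and NaCl replicates 2 and 4 were the lowest. The log2 difference was 0.75 (SE 0.10, limma adjusted p = 7.4e-05). It did not hold under reference-gene scaling (0.054, adjusted p = 0.677).

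Serping1 encodes the C1 inhibitor, which controls the complement proteases C1r and C1s and plasma kallikrein. The caerulein values had a lowest of 7.39, a median of 7.70 and a highest of 8.07, against 7.32, 7.26, 7.24, 7.42 and 7.18 in NaCl. Caerulein replicates 1, 2 and 6 were the high ones, at 7.86, 7.97 and 8.07, replicates 4 and 5 were at 7.55 and 7.52, and replicate 3 lay below NaCl replicate 4. The log2 difference was 0.44 (SE 0.12, limma adjusted p = 0.00949), but the call depended on the scaling. The difference was 0.31 (adjusted p = 0.0542) after cyclic loess and 0.18 (adjusted p = 0.242) after the second quantile normalisation. Under reference-gene scaling it was -0.25 (adjusted p = 0.0609).

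Markers of other cell types moved between the groups as well. Of 10 duct markers 6 rose and 2 fell, with Cldn4 at 5.76, Krt19 at 4.39 and Muc1 at -1.14. Their summed signal was 22280 to 25821 in caerulein and 2258 to 2740 in NaCl. Under reference-gene scaling 5 were higher and 4 lower. Of 12 measured monocyte and macrophage markers 7 rose and 0 fell, and their summed signal was 1042 to 2113 in caerulein and 664 to 751 in NaCl. Under reference-gene scaling 5 were higher and 5 lower. Of 14 neutrophil markers 2 rose and 3 fell, and 9 did not pass, S100a8 (0.33), S100a9 (0.15) and Ly6g (-0.11) among them. After cyclic loess and after the second quantile normalisation 3 were higher and 0 lower, and under reference-gene scaling 1 was higher and 12 lower. The neutrophil sum was 941 to 1573 in caerulein and 404 to 458 in NaCl, but without Lcn2, which epithelial cells also express, it was 323 to 444 in caerulein and 360 to 394 in NaCl. The T and NK cell markers fell in 8 of 11 cases with 0 higher, with a sum of 297 to 336 in caerulein and 378 to 419 in NaCl. The number of falls was 1 after cyclic loess, 2 after the second quantile normalisation and 11 under reference-gene scaling. Endothelial markers rose in 3 of 10 cases and fell in 1 (0 and 10 under reference-gene scaling), with a sum of 957 to 1081 in caerulein and 887 to 1011 in NaCl. Of 12 fibroblast and stellate cell markers 3 rose and 2 fell (0 and 8 under reference-gene scaling), with a sum of 1481 to 2384 in caerulein and 1620 to 1886 in NaCl. Of the markers of cells outside the exocrine pancreas, 7 of 9 for hepatocytes, 3 of 8 for islets and 3 of 7 for adipocytes fell and 0 rose, and of 6 mesothelial markers only Krt19 rose. After cyclic loess the hepatocyte, islet and adipocyte falls numbered 3, 0 and 2, and under reference-gene scaling 9, 6 and 7. No probe set reads 0 on these arrays and detection calls were not used, so no marker can be called absent. The part of these cell types in the serpin differences was not tested.

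**Figure D2:**
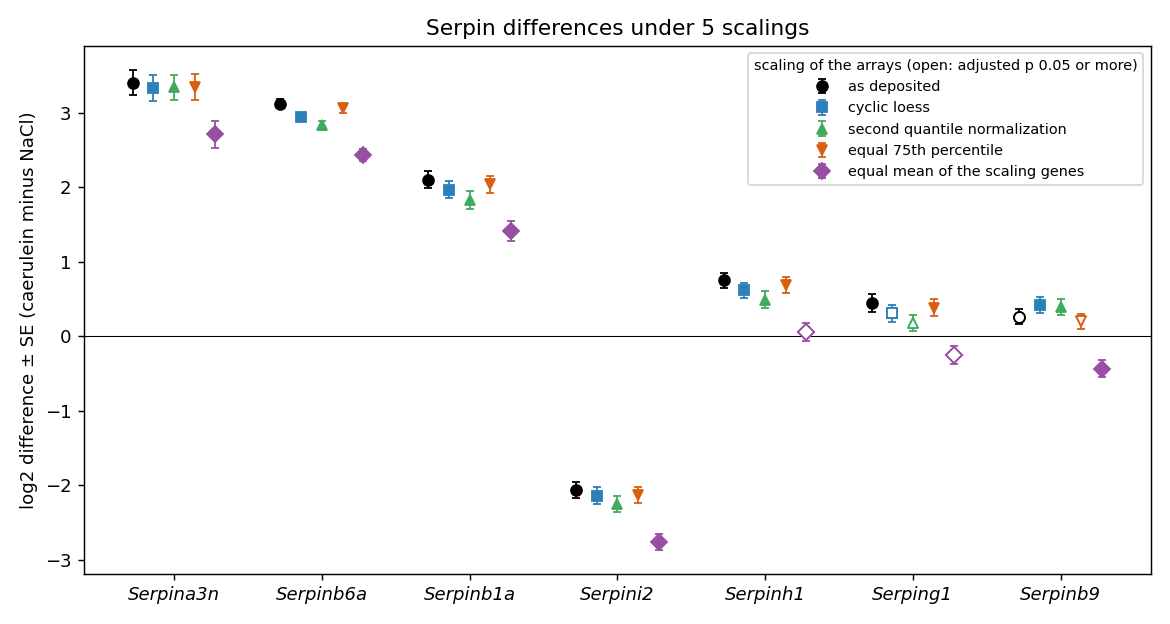
Log2 difference ± SE, caerulein minus NaCl (vertical axis), of the 7 serpin genes as deposited and under 4 rescalings of the arrays, with open symbols where the adjusted p was 0.05 or more. Serpina3n, Serpinb6a, Serpinb1a and Serpini2 keep sign and call under all 5 scalings, whereas Serping1 and Serpinb9 are negative under reference-gene scaling.

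The 4 larger changes kept their sign and call under the 4 rescalings, while the calls of the smaller ones depended on the scaling. Reference-gene scaling lowered larger and smaller differences by the same amount, Serpinb1a from 2.10 to 1.41 and Serping1 from 0.44 to -0.25. The 4 rescalings gave 2.71 to 3.35 for Serpina3n, 2.43 to 3.06 for Serpinb6a, 1.41 to 2.04 for Serpinb1a and -2.76 to -2.13 for Serpini2, all past the threshold. Under reference-gene scaling the median over all genes was -0.83, and 9 of the 15 scaling genes themselves passed as higher in the deposited values. Serpinb9 (-0.43) and Serping1 (-0.25) lay above the median of all genes. Their distances from it, 0.39 and 0.58, are those of the deposited values, since this scaling shifts all genes equally.

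The rest of the family was measured by 41 genes. Among these 2 rose, 13 fell and 26 did not pass, and the median difference was -0.15, close to the -0.13 of all genes. The numbers higher and lower were 4 and 2 after cyclic loess and 3 and 2 after the second quantile normalisation. They were 2 and 19 with equal 75th percentiles, and 0 and 39 under reference-gene scaling. Of all 19938 genes, 9155 were lower with equal 75th percentiles and 17019 under reference-gene scaling. The median of the 41 was negative under all 4 rescalings, from -0.84 under reference-gene scaling to -0.036 after cyclic loess. So was the median of all genes, at -0.83 and -0.019 under the same 2 scalings. The counts of the 41 show that the scaling sets how many of the small falls pass. The number past the threshold was 7 without caerulein replicate 5, and 9 without caerulein replicate 3, caerulein replicate 6 or NaCl replicate 3. The rises were those of Serpinb5, known as maspin (1.01, SE 0.28, limma adjusted p = 0.0101), and Serpinb8 (0.51, SE 0.10, limma adjusted p = 0.00155). Under reference-gene scaling they were 0.32 (adjusted p = 0.239) and -0.19 (adjusted p = 0.103). The largest falls were those of Serpinf2, the plasma inhibitor of plasmin (-0.56), Serpini1, the neuronal inhibitor neuroserpin (-0.51), the pseudogene Serpina4-ps1 (-0.30) and Serpina3a (-0.28). The 41 differences ranged from -0.56 to 1.01, all smaller than those of Serpinb1a, Serpinb6a, Serpina3n and Serpini2. The listed serpins were chosen with earlier results of these data in view, so this contrast may reflect the choice. Those of Serpina4-ps1 and Serpina3a did not pass after cyclic loess or the second quantile normalisation. By mean value 33 of them lay in the dimmer 50 percent of all probe sets, and whether these probe sets are above background is unknown.

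**Figure D3:**
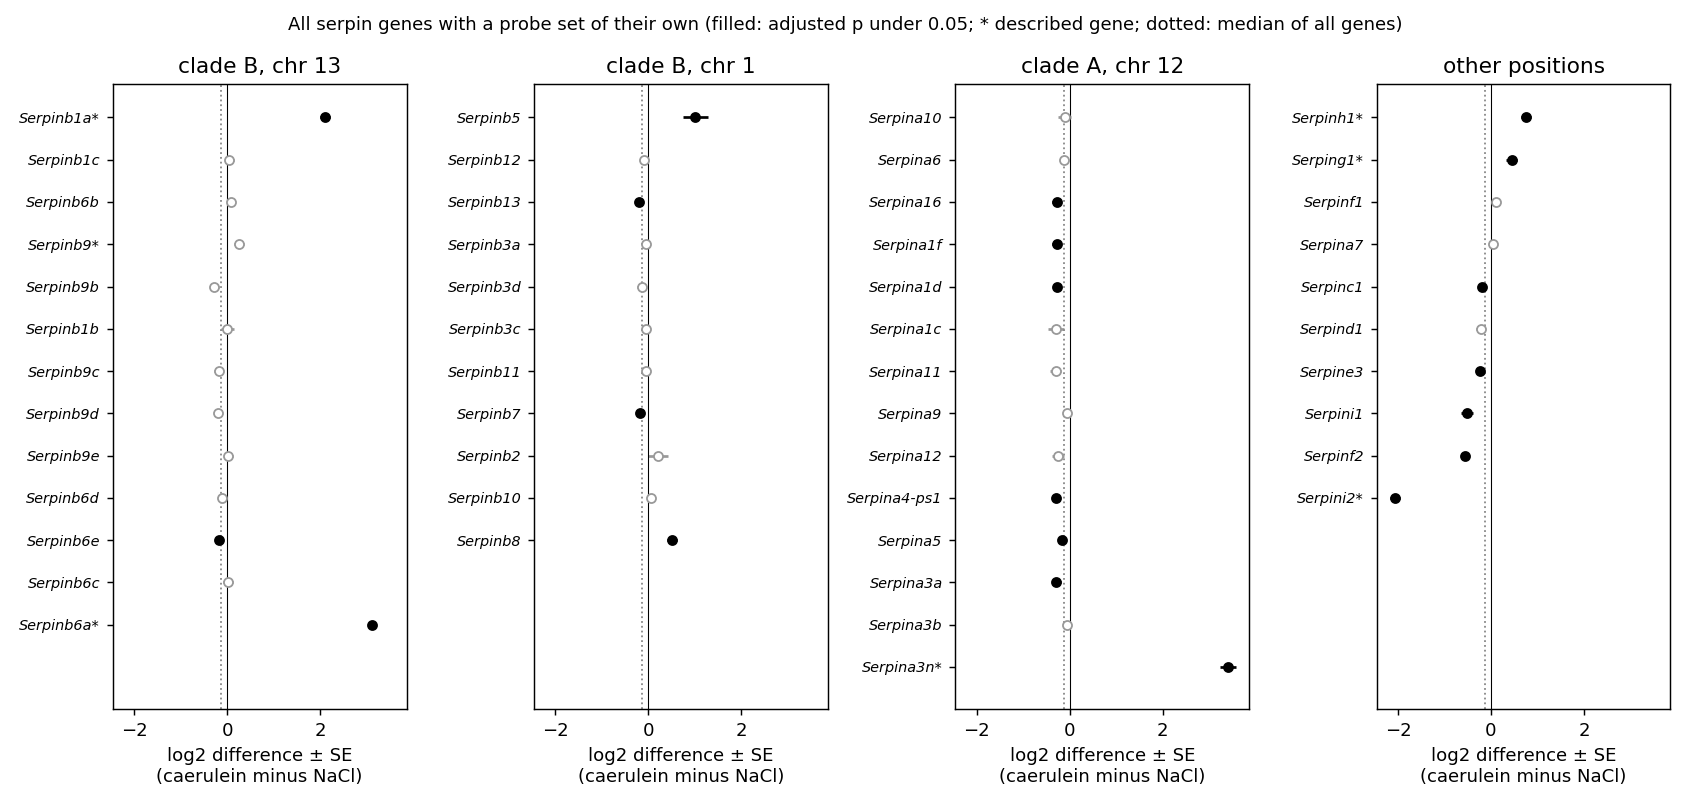
Log2 difference ± SE, caerulein minus NaCl (horizontal axis), for all 48 serpin genes with a probe set of their own, in chromosomal order within the 3 clusters and by size elsewhere. Serpina3n, Serpinb6a and Serpinb1a lie above, and Serpini2 below, the 41 other genes, which range from -0.56 to 1.01. The listed serpins were chosen with earlier results of these data in view.

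Most measured serpins outside the 7 lie in 3 gene clusters, taken here in the gene order of the RefSeq table of GRCm38.p6. In the clade B cluster of chromosome 13, 13 genes were measured. Serpinb1a is the first and Serpinb6a the last of them, and the 11 genes between them ranged from -0.27 (Serpinb9b) to 0.26 (Serpinb9), with Serpinb6e past the threshold as lower (-0.18). After cyclic loess 4 of the 13 were higher and 0 lower, since Serpinb9 (0.42) and Serpinb6b (0.27, adjusted p = 0.011) passed as well. The second quantile normalisation gave the same counts. The other rescalings kept only the rises of Serpinb1a and Serpinb6a in this cluster. Falls past the threshold numbered 4 when the 75th percentiles were equalised. Reference-gene scaling made 11 genes pass as falls, Serpinb9 (-0.43) and Serpinb6b (-0.62) among them. As deposited, the close relatives Serpinb1b and Serpinb1c were at 0.01 and 0.05, and Serpinb6b and Serpinb6c at 0.08 and 0.02. In the clade B cluster of chromosome 1, Serpinb5 is the first and Serpinb8 the last of 11 measured genes, and none of the 9 between them rose. Under reference-gene scaling neither Serpinb5 nor Serpinb8 passed. In the clade A cluster of chromosome 12, Serpina3n is the last of 14 measured genes, and 6 of the other 13 fell, all 13 lying between -0.30 and -0.06, against a median of -0.13 over all genes. None of these falls passed after cyclic loess or the second quantile normalisation, whereas 8 passed with equal 75th percentiles and 13 under reference-gene scaling. Its measured relatives Serpina3a and Serpina3b were at -0.28 and -0.06. Near-identical copies share sequence in these clusters, so a probe set may also read a relative, and the genes whose probe sets carry several symbols are not named.

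The genes closest to each strongly changed serpin were found by the root mean square distance between their values over the 11 arrays, each minus its own NaCl mean. For Serpina3n these were Map2k3, a MAP kinase kinase (distance 0.25 in log2 units), Rtn4 (0.32) and Kel (0.33). For Serpinb1a they were Tpm1, a tropomyosin (0.15), Cdcp1 (0.15) and Hmces (0.15), and for Serpinb6a Ywhah, a 14-3-3 protein (0.08), the actin regulator Wdr1 (0.11) and the actin crosslinker Actn1 (0.11). For Serpini2 they were Tmed11 (0.12), Derl3, a factor of endoplasmic reticulum-associated degradation (0.13), and Mmut, a mitochondrial mutase (0.16). The measure rests mostly on the size of the difference between the groups.

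Proteases that serpins are known to meet were counted by list. The arrays measure RNA, and the amount and activity of the protease proteins were not measured. Of 10 neutrophil and mast cell proteases 4 fell and 1 rose (median -0.23), the metalloproteinase gene Mmp8 (0.41, and -0.28 under reference-gene scaling), with the Serpinb1a target proteinase 3 (Prtn3) at -0.50. Its targets Elane (-0.19, limma adjusted p = 0.092) and Ctsg (-0.08, limma adjusted p = 0.504) did not pass. Cyclic loess left 2 falls in this list, while equal 75th percentiles gave 7 and reference-gene scaling 10. Of 7 cytotoxic granule genes 0 rose and 5 fell (median -0.28), and Gzmb, the target of Serpinb9, was at -0.17 (limma adjusted p = 0.135). The count of falls was 1 both after cyclic loess and after the second quantile normalisation, and 7 under reference-gene scaling. Of 12 complement and contact genes 0 rose and 3 fell (median -0.16), with the Serping1 targets C1ra and C1s1 at -0.17 and -0.14, neither past the threshold. After cyclic loess 1 was lower and under reference-gene scaling 12. Of 13 digestive proteases 0 rose and 3 fell as deposited, led by the chymotrypsin gene Ctrc (-1.39). After cyclic loess, after the second quantile normalisation and with array weights 3 fell as well, and 2 with the replicate number as a block. With a trended robust variance prior 9 fell, with equal 75th percentiles 10, and under reference-gene scaling 13. Cathepsins, lysosomal proteases, rose in 7 of 12 cases and fell in 2 (median 0.53), with Ctsl at 2.14, Ctsz at 1.75 and Ctsf at -0.50. Under reference-gene scaling 5 were higher and 6 lower. St14, the membrane protease matriptase, rose by 2.66 on the log2 scale, while 5 of the 9 genes of its list fell, Hpn, which encodes hepsin, by 0.68. Of that list 3 were lower after cyclic loess and 8 under reference-gene scaling. Among 13 plasminogen and coagulation genes 3 rose and 5 fell as deposited, but 6 were higher and 1 lower after cyclic loess, 4 and 1 after the second quantile normalisation, and 1 and 10 under reference-gene scaling. The largest rise was that of the urokinase receptor gene Plaur (2.05), which encodes no protease.

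**Figure D4:**
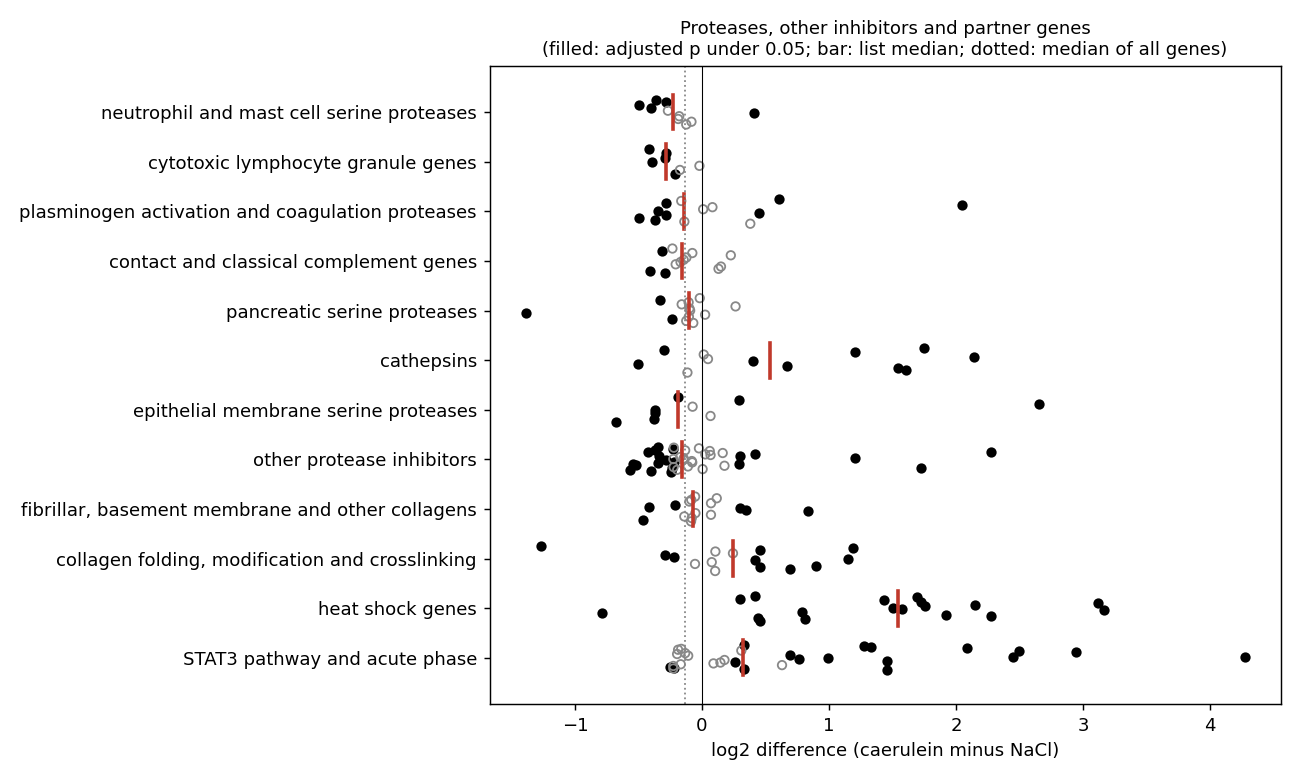
Log2 differences, caerulein minus NaCl (horizontal axis), of the measured genes in 12 lists of proteases, other protease inhibitors and genes related to Serpinh1 or Serpina3n, with the list medians. Heat shock genes have the highest median (1.54), and the protease lists other than cathepsins have medians between -0.28 and -0.10.

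Inhibitors of other families were mixed. Of 38 measured, 6 rose and 14 fell (7 and 7 after cyclic loess, 3 and 34 under reference-gene scaling). The metalloproteinase inhibitor gene Timp1 rose by 2.27 on the log2 scale, the cathepsin inhibitor gene Cstb by 1.73, and the acinar trypsin inhibitor gene Spink1, added after its value was seen, was at -0.29 (limma adjusted p = 0.0416).

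Serpinh1 is both a heat shock gene and a collagen chaperone, so both groups were counted. Of 18 heat shock genes 17 rose and 1 fell (median 1.54), with Hsp90aa1 at 3.16, Hspb1 at 3.11 and Dnajb4 at -0.79. Under reference-gene scaling 11 were higher and 4 lower. Of 16 collagens 3 rose and 3 fell (median -0.07), with Col3a1 at 0.83, Col14a1 at -0.46 and Col1a1 and Col1a2 at 0.07 and -0.05. After cyclic loess 1 was higher and 3 lower, and under reference-gene scaling 15 were lower and 0 higher. Of 15 collagen-modifying genes 7 rose and 3 fell (2 and 9 under reference-gene scaling), among them the lysyl hydroxylase gene Plod3 (1.19) and the prolyl isomerase gene Ppib (-1.27). For Serpina3n, the list of the STAT3 pathway and acute phase genes had 15 of 30 genes higher and 2 lower (median 0.32), while reference-gene scaling gave 10 and 15. Lcn2 was at 4.27, the oncostatin M receptor gene Osmr at 2.95, Stat3 itself at 1.28, and the fibrinogen gene Fgg at -0.25.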

How the data were processed

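Total RNA from mouse pancreas was hybridised to Affymetrix arrays, 1 per sample, 6 labelled caerulein and 5 labelled NaCl by the sample titles. Degraded RNA had been excluded, per the labels' protocols. The values the authors deposited are log2 expression per probe set, made with RMA and the R packages oligo and limma per the submitters' processing notes, without versions. RMA corrects background, normalises and summarises probes, which can understate changes of very dim and very bright probe sets. The array medians were 5.20 to 5.25 in caerulein and 5.35 to 5.40 in NaCl. The number of arrays limits the precision. No detection calls or batches were used, and levels of different probe sets were not compared. Of 35556 probe sets, 21789 carried 1 symbol, 1621 several, and 12146 were not listed. A check through Entrez identifiers against the RefSeq table of GRCm38.p6 matched 21698 and changed 0 symbols. The files name no genome build, so only the promoter sequences carry coordinates.

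Differences, caerulein minus NaCl, come from limma 3.58.1 in R 4.3.3 (lmFit and eBayes, two-sided, no covariates), adjusted over all probe sets by Benjamini-Hochberg. The fit was tested on simulated data. The genes, gene lists and motifs were chosen with earlier results of these data or, for the motifs, the sequences in view, so lists are described by counts and medians beside those of all genes. The genes picked for naming were all the listed serpins, and the 4 largest passing rises and falls among other serpins. Also picked were the leading 2 passing genes of each list and 1 against its majority. The 3 genes closest to each strongly changed listed serpin were picked as well. Not every gene picked from a list is named here. Elane, Ctsg, Gzmb, C1ra, C1s1, Col1a1, Col1a2, Stat3, S100a8, S100a9, Ly6g, Spink1 and the relatives of the listed serpins were added after their values were seen. As alternatives the fit was repeated after 4 rescalings, with array weights, with a trended robust variance prior, without the dimmer 50 percent of probe sets, with the replicate number as a block, and without each array. The main fit did not pair the arrays by replicate number. Correlations between same-numbered deviations ran from -0.05 to 0.06, but 4 of 5 caerulein arrays correlated best with the NaCl array of their own number. Whether same-numbered arrays belong together is not known.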

Additional observations from a re-analysis of the deposited data

Results flagged for a closer look

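Among 71 genes picked by the naming rule, 142 groups of arrays were checked by Dixon's test for 1 array standing apart from its group. In this test chance alone flags about 1 group in 20, and 8 were found. The serpin case is Serpina3n, where NaCl replicate 4 read 4.45 and the nearest other NaCl array 5.27. In caerulein, Prf1 read 5.23 on replicate 1 against 5.74 for the nearest other array, Masp1 4.94 on replicate 6, below the others, and Ctsf 6.23 on replicate 1 against 6.00. In NaCl, Hsp90aa1 read 8.75 on replicate 1 against 8.47, Dnajb4 6.14 on replicate 4 against 5.73, Lcn2 5.99 on replicate 3 against 5.46, and Fgg 4.27 on replicate 3 against 4.07.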

How the results depend on the processing

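Serpina3n, Serpinb6a, Serpinb1a and Serpini2 kept direction and call in all 19 alternatives. Serpinh1 kept them in 18, and fell short of the threshold under reference-gene scaling (0.054). Serping1 did so after cyclic loess (0.31) and the second quantile normalisation (0.18), and had the opposite sign under reference-gene scaling (-0.25). Serpinb9 passed with array weights (0.28), cyclic loess (0.42) and the second quantile normalisation (0.39), had the opposite sign under reference-gene scaling (-0.43), and was not tested without the dimmer 50 percent of probe sets. With each array left out, the ranges were 3.24 to 3.48 for Serpina3n, 2.05 to 2.17 for Serpinb1a, 3.10 to 3.14 for Serpinb6a, 0.21 to 0.32 for Serpinb9, 0.38 to 0.51 for Serping1, 0.67 to 0.80 for Serpinh1 and -2.12 to -1.98 for Serpini2, and 6 to 7 of the serpins passed. Of the other serpin genes 15 passed as deposited, 7 to 13 with each array left out, 6 after cyclic loess, 5 after the second quantile normalisation, 6 without the dimmer 50 percent (fewer genes tested), 39 under reference-gene scaling and 7 with the replicate block, a fit that also leaves out caerulein replicate 6. The block is a description only, since 4 of 5 caerulein arrays correlated best with the NaCl array of their own number but same-numbered correlations ran only from -0.05 to 0.06. Over all probe sets 15713 passed (14148 to 14993 with each array left out), and 32264 under reference-gene scaling (1848 higher, 30416 lower, against 5829 and 9884 as deposited). After cyclic loess 6319 were higher and 5467 lower. Of the list genes 159 passed as deposited, 139 to 155 with each array left out and 259 under reference-gene scaling. With that scaling, of the genes picked by the naming rule outside the listed serpins, Serpinb8 (-0.19), Mmp8 (-0.28), Thbd (-0.086), Pecam1 (-0.30), Eng (-0.32) and Ptf1a (-0.14) changed sign. The scaling lowered every difference by the same amount, so other list genes with small rises changed sign too. Apart from the scalings, the causes were not tested. No serpin described here had another probe set with its symbol alone, so the alternatives on the choice of probe set gave no value. Dim probe sets such as that of Serpinb9 limit what the arrays can show.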
